A study of Mus musculus with 9 samples.

Results

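The nuclear genes of the mitochondrial respiratory chain and of the ATP synthase were described across 3 groups of the mouse macrophage line RAW264.7. They were chosen by name: symbols that begin with Nduf, Uqcr or Atp5, symbols that begin with Cox followed by a digit from 4 to 8, and Cyc1 and Cycs, without names marked as pseudogenes by -ps. The rule used no measured value, though the members were chosen with earlier results of these data known. It gave 98 genes, counted by gene identifier, of 54725 in the transcript matrix. They comprised 37 subunits of complex I, 9 of complex III, cytochrome c, 20 of complex IV, 18 identifiers of the ATP synthase (2 of them for Atp5o), 8 assembly factors of complex I and 5 further gene copies. Ndufa4, its relative Ndufa4l2 and Cox7a2l were placed with complex IV. Of the 98 genes, 87 reached 1 FPKM in at least 1 group, and 8 were listed at 0 in all groups.

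The study sequenced RNA from 9 samples of RAW264.7 cells, 3 titled CON, 3 titled LPS and 3 titled ProNa. CON is read here as untreated cells, LPS as cells given bacterial lipopolysaccharide, an agonist of Toll-like receptor 4, and ProNa as cells given ProNa and then LPS. The same treatment text accompanies all samples and states 1 mM ProNa for 24 h and then 100 ng/mL LPS for 12 h, so these readings rest on the titles, and what the name ProNa stands for is not spelled out. On that reading no group received ProNa without LPS. All groups share 1 immortalised line, and the labels leave unsaid whether samples of a group were separate cultures, so p-values measure a spread that may be technical.

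The respiratory chain passes electrons from NADH (complex I) and succinate (complex II) through coenzyme Q, complex III and cytochrome c to oxygen at complex IV, and the ATP synthase uses the resulting proton gradient to make ATP. Complexes I, III and IV and the ATP synthase are built from many nuclear subunits and a few mitochondrially encoded ones. Macrophages exposed to LPS are known for a shift from respiration towards glycolysis, during which the chain can also run as a source of reactive oxygen species.

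Levels are the authors' group mean FPKM, a measure of reads scaled to transcript length and library size, summed here over the transcripts of a gene. Single samples could not be matched to columns of values, so no SD accompanies a mean, and fold changes and adjusted p-values come from the authors' deposited DESeq2 table, with a threshold of 0.05 on the adjusted p. The depth is unknown. Across all genes with an adjusted p, the deposited log2 fold changes lay above the log2 ratio of the mean FPKM by a median of 0.26 for LPS against CON, 0.13 for ProNa against LPS and 0.40 for ProNa against CON. Changes with that median subtracted are called the FPKM scale. Of 10 macrophage markers 9 were at or above 1 FPKM in every group and Mertk was near 0. Their summed level was 12864, 3503 and 4930 FPKM in CON, LPS and ProNa, of which Lyz2 held 9719, 661 and 1586 FPKM. The other markers moved both ways: Csf1r had 888, 27.7 and 53.1 FPKM, and Cd14 757, 1406 and 1975 FPKM. Adgre1, Spi1 and Fcgr1 were also higher in LPS than in CON, and Cd68, Itgam and Ptprc were lower. All 7 epithelial, 5 lymphocyte and 4 muscle markers were under 1 FPKM in every group, although the labels' extraction text speaks of colonic tissue. The 7 fibroblast and smooth muscle markers summed to 1.40, 14.1 and 17.8 FPKM in CON, LPS and ProNa, with Acta2 alone at or above 1 FPKM in LPS and ProNa. The part of these marker changes in the results below was not tested. In bulk RNA, fewer cells with active respiration and less RNA per cell cannot be told apart.

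In untreated cells the ATP synthase had the highest summed level, at 5473 FPKM, ahead of complex IV at 4389 FPKM, complex I at 3401 FPKM and complex III at 1840 FPKM. All members together summed to 15367 FPKM in CON, 1.95% of the FPKM of all genes. The catalytic beta subunit of the ATP synthase, Atp5b (ENSMUSG00000025393), was the highest member at 1225 FPKM, followed by Cox4i1 (ENSMUSG00000031818), a regulatory subunit of complex IV, at 901 FPKM. Within complex I the median subunit stood at 84.6 FPKM, and levels ran from 18.6 FPKM for Ndufb4 to 196 FPKM for Ndufs8. Complex III levels ran from 59.6 FPKM for the core protein gene Uqcrc2 to 539 FPKM for the hinge protein gene Uqcrh. Cycs (ENSMUSG00000063694), the mobile electron carrier cytochrome c, had 45.3 FPKM in CON, below every complex III subunit. The assembly factors of complex I, which are not part of the finished enzyme, were lower still, from 4.33 FPKM for Ndufaf1 to 26.9 FPKM for Ndufaf8. Protein-coding transcripts held 90.3%, 90.6% and 90.6% of the members' FPKM in CON, LPS and ProNa, with biotypes from GENCODE M21.

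**Figure D1:**
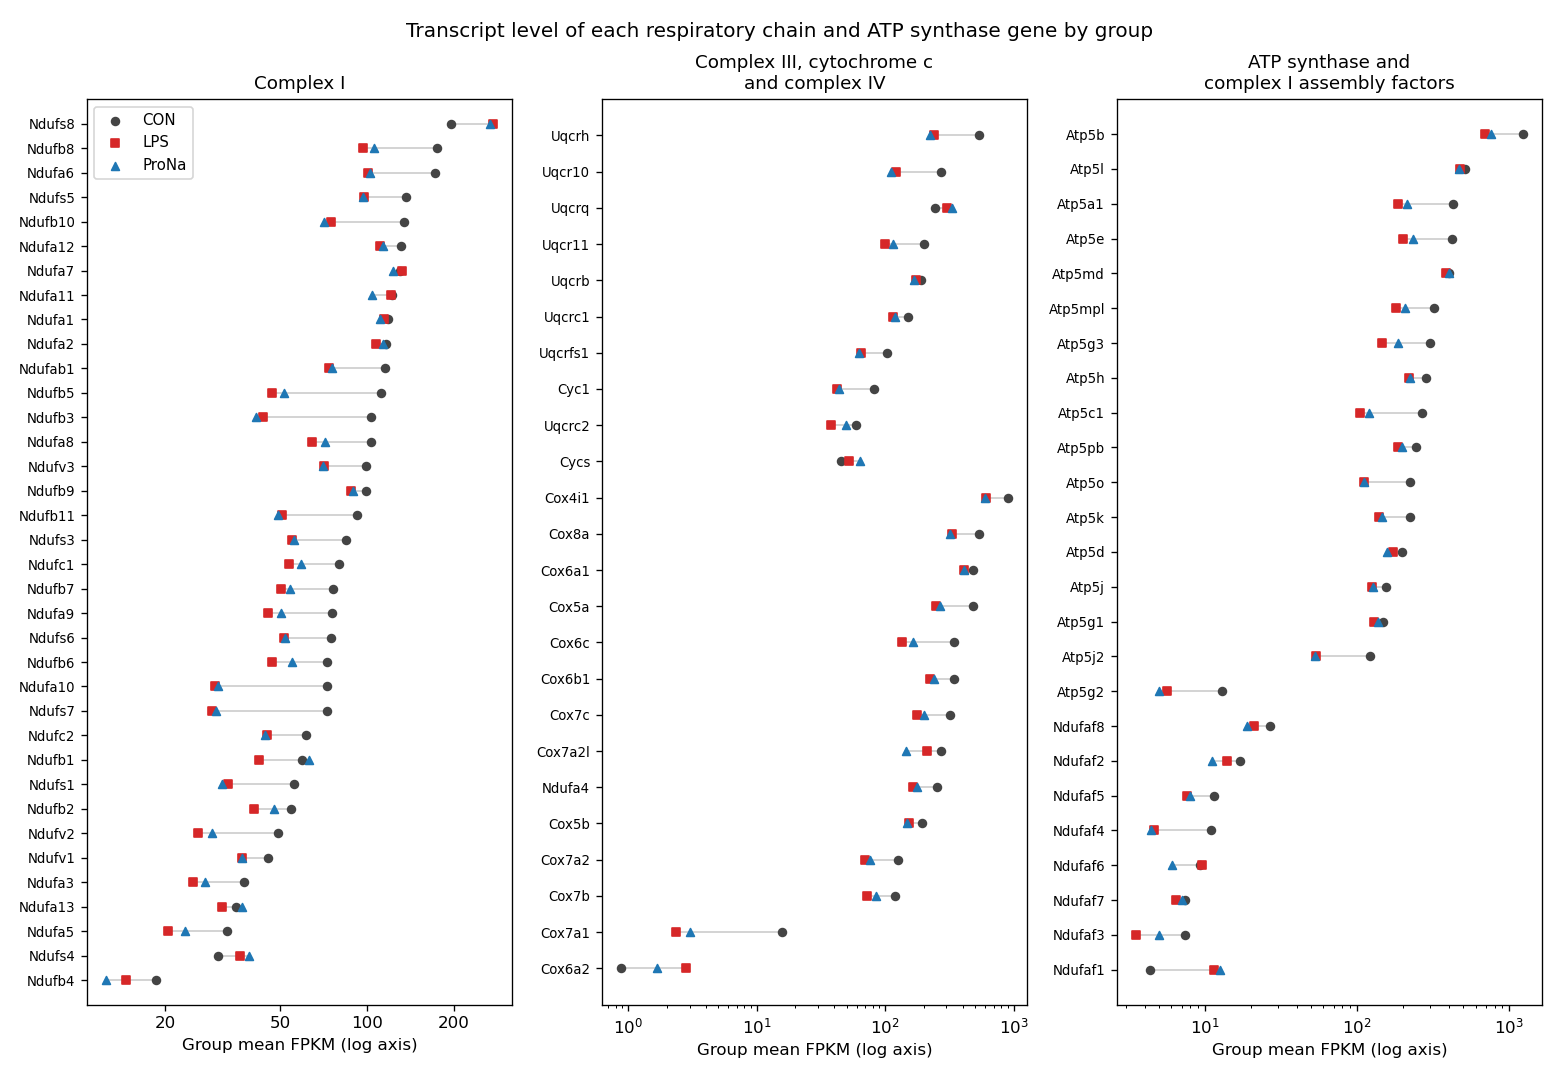
Group mean FPKM on log axes for the subunits and assembly factors that reached 1 FPKM in a group, in order of their CON level within each complex; circles are CON, squares LPS and triangles ProNa, each 1 deposited mean without an error. LPS lay below CON in 79 of the 87 members at or above 1 FPKM (Ndufb4c, a gene copy, and 1 complex I subunit are not drawn), and Ndufs8, Uqcrq, Cycs, Ndufs4 and Ndufaf1 are among the exceptions. The share of all genes below CON was not counted. Over genes with an adjusted p, the median log2 ratio of mean FPKM was -0.59 for the members and -0.11 for all genes.

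Several tissue or stress isoforms were listed at or near 0. Cox4i2, the hypoxia-linked isoform of Cox4i1, had 0.0333 FPKM in CON and LPS and 0.0733 FPKM in ProNa. Cox6b2, Cox7b2, Cox8b and Cox8c were listed at 0 in all 3 groups, against 341, 119 and 535 FPKM in CON for their partners Cox6b1, Cox7b and Cox8a. Ndufa4l2, a hypoxia-inducible relative of Ndufa4, stayed at 0.08 to 0.137 FPKM, whereas Ndufa4 had 252, 163 and 176 FPKM in CON, LPS and ProNa. Of the muscle isoforms, Cox7a1 had 15.7 FPKM and Cox6a2 0.88 FPKM in CON. Among the 3 genes for subunit c of the ATP synthase rotor ring, which encode the same mature protein, Atp5g3 had 299 FPKM, Atp5g1 149 FPKM and Atp5g2 12.9 FPKM in CON. Ndufb4c, annotated as a processed pseudogene in GENCODE M21, had 123, 88.9 and 91.0 FPKM in the 3 groups, above its parent Ndufb4 at 18.6, 14.6 and 12.5 FPKM. Reads may be split between these near-identical copies, so both levels are uncertain.

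Promoters of the members were searched because so many genes of the same pathway were measured together. Promoter windows from RefSeq (GRCm38.p6), 250 bases before to 50 after the start, matched 72 of the 87 members at or above 1 FPKM, in 77 windows. The letters GCATGCGC, a site of NRF1, the main activator of respiratory genes, occurred on either strand in 12 of the 77 windows, or 15.6%, against 2.71% of all 32851 windows. CCGGAAG, a core of ETS factors such as GABP, occurred in 22.1% against 8.86%, AAGATGGC of YY1 in 14.3% against 2.75%, and TGACGTCA, the cyclic AMP response element (CRE), in 6.49% against 1.79%. Unlike the members' windows, the windows of all genes were not limited to genes at or above 1 FPKM. The ETS and YY1 letters can overlap by the shared AAG. By the call in LPS against CON, NRF1 letters were in 6 of 39 windows of lower genes, 1 of 6 of higher genes and 5 of 32 of genes not called, and ETS letters in 9, 2 and 6 of the same windows. YY1 letters were in 4, 1 and 6 of these windows and CRE letters in 2, 1 and 2. Such matches are letters in a window, not measured binding. The 250 bases before the start are shown for 3 genes chosen after their values were seen: Cycs, which rose with LPS and holds CRE and NRF1 letters, Ndufa10, with the largest fall in complex I and CRE letters, and Uqcrh, with the largest fall in complex III and ETS letters. All 3 lie on the minus strand and are written 5′ to 3′ in GRCm38.p6, with the motif letters in capitals: Cycs at chr6:50566570-50566819, Ndufa10 at chr1:92473759-92474008 and Uqcrh at chr4:116075071-116075320.
Cycs: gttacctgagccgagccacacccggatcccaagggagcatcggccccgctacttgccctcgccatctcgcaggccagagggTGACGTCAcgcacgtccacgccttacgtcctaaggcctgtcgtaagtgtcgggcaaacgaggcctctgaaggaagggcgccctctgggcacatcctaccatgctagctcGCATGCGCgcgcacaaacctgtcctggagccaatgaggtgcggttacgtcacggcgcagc
Ndufa10: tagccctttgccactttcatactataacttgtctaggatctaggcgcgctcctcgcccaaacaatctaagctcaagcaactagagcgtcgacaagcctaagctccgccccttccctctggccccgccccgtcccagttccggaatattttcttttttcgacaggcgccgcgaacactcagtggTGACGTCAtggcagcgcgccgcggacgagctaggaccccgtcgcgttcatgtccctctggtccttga
Uqcrh: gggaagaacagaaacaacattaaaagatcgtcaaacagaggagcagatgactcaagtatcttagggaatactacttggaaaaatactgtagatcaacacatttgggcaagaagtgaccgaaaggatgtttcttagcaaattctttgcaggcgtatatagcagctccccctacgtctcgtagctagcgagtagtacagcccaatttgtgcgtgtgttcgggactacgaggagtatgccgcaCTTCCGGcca
In the Cycs promoter the CRE began 169 and the NRF1 letters 60 bases before the start. The CRE of Ndufa10 began 67 bases and the ETS letters of Uqcrh, on the opposite strand, 10 bases before the start.

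The first comparison, LPS against CON, asks how these genes differed in cells given LPS alone. The summed FPKM of each complex was lower in LPS, and among members that passed the test more fell than rose. The summed level of the members was 10182 FPKM in LPS, 66.3% of that in CON. Complex I stood at 72.0% of CON, complex III at 65.2%, complex IV at 64.1% and the ATP synthase at 64.0%. Cytochrome c stood at 114.5% of CON. Of 89 members with an adjusted p in the authors' deposited table, 46 fell and 7 rose, or 59.6%, where 55.4% of all 17795 genes were called, 27.2% lower and 28.1% higher. The share called was thus near the background, while 51.7% of the members fell. The median log2 fold change of the members was -0.32 in the authors' deposited table, against -0.02 over all genes with an adjusted p. On the FPKM scale 65 members were lower and 5 higher, with 35.8% of all genes lower and 21.4% higher there. By complex that scale had 26 of 37 lower and 1 higher in complex I, 7 of 9 and 1 in complex III, 12 of 15 and 1 in complex IV, and 15 of 17 and 0 in the ATP synthase. At least 2-fold changes were few: 6 members fell and 2 rose by that much in the authors' deposited table, 8 in all, where 27.9% of all genes were called, 13.9% lower and 14% higher.

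Complex I has a catalytic core that oxidises NADH and reduces coenzyme Q, and a shell of accessory subunits. Of its 37 subunits 18 fell and 3 rose in the authors' deposited table, and their median log2 change was -0.31. Of the 7 nuclear core subunits 5 fell and 1 rose, with a median of -0.61 in the authors' deposited table. Ndufs7 (ENSMUSG00000020153), an iron-sulfur subunit next to the coenzyme Q site, had means of 72.5, 29.1 and 30.03 FPKM in CON, LPS and ProNa. Its log2 fold change in LPS against CON was -1.06 with an adjusted p of 1.4e-16 per the authors' deposited table. The LPS mean was under 50% of the CON mean.

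Ndufs8 (ENSMUSG00000059734), an iron-sulfur core subunit, went the other way and was the highest complex I transcript. Its means were 196, 273 and 267 FPKM in CON, LPS and ProNa, and its log2 fold change in LPS against CON was 0.72 with an adjusted p of 1.6e-20 per the authors' deposited table. Its main transcript held 70.3% of the gene's FPKM in CON and 74.8% in LPS, and by itself went from 138 to 204 FPKM. Ndufv1, the NADH-binding core subunit, had 45.5 and 37.1 FPKM and did not pass, with an adjusted p of 0.519 per the authors' deposited table.

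Among the accessory subunits of complex I 13 of 30 fell and 2 rose in the authors' deposited table. Ndufa10 (ENSMUSG00000026260), in the membrane arm, had 72.8, 29.8 and 30.5 FPKM in CON, LPS and ProNa. Its log2 fold change of -1.09 with an adjusted p of 4.5e-33 per the authors' deposited table was the largest fall in complex I. Ndufb5 and Ndufb3, also of the membrane arm, had log2 fold changes of -0.99 and -0.98 in the authors' deposited table. Their means went from 112 to 47.0 FPKM for Ndufb5 and from 104 to 43.6 FPKM for Ndufb3. Ndufb8, a membrane arm subunit often used as a protein marker of the complex, went from 175 FPKM to 97.1 FPKM, with a log2 fold change of -0.61 in the authors' deposited table. Ndufs4 (ENSMUSG00000021764), an accessory subunit of the NADH module whose loss causes Leigh syndrome, had 30.5, 36.3 and 38.9 FPKM in CON, LPS and ProNa. Its log2 fold change was 0.46 with an adjusted p of 1.8e-04 per the authors' deposited table, and on the FPKM scale, at 0.19, it was not called. Ndufa7 had 131 and 132 FPKM in CON and LPS. It was called higher with an adjusted p of 0.042 per the authors' deposited table, but stood at -0.01 on the FPKM scale.

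Complex III carries electrons from coenzyme Q to cytochrome c through cytochrome b, the Rieske protein and cytochrome c1. Of its 9 genes 6 fell and 1 rose in the authors' deposited table. Cyc1, which encodes cytochrome c1, had 81.5, 42.2 and 43.4 FPKM, with a log2 fold change of -0.69 in LPS against CON and an adjusted p of 4.9e-18 per the authors' deposited table. The Rieske gene Uqcrfs1 had 103, 64.5 and 62.4 FPKM, with a log2 fold change of -0.41 in the authors' deposited table. Uqcrh (ENSMUSG00000063882), the hinge protein at the cytochrome c1 site, had 539, 238 and 221 FPKM, and its log2 fold change of -0.91 in the authors' deposited table was the largest fall of the complex. Its promoter is one of the 3 shown. Uqcr10 and Uqcr11, small subunits of the complex, had log2 fold changes of -0.89 and -0.75 in the authors' deposited table.

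Uqcrq (ENSMUSG00000044894), which encodes a small ubiquinone-binding subunit, rose against the rest of complex III. Its means were 244, 306 and 331 FPKM in CON, LPS and ProNa, so it became the highest complex III transcript. The log2 fold change was 0.52 with an adjusted p of 3.2e-07 per the authors' deposited table. Uqcrb, the neighbouring small subunit, had 190 and 175 FPKM in CON and LPS and did not pass, with an adjusted p of 0.267 per the authors' deposited table. Cycs also rose: its means were 45.3, 51.8 and 63.5 FPKM, with a log2 fold change of 0.49 at an adjusted p of 1.3e-13 per the authors' deposited table. Beyond its place in the chain, cytochrome c triggers the apoptosome once it leaves mitochondria.

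Complex IV reduces oxygen on mitochondrially encoded subunits that nuclear subunits surround. Of 15 nuclear members with an adjusted p 10 fell and 1 rose in the authors' deposited table, and their median log2 change was -0.37. Cox4i1 had 901, 610 and 598 FPKM in CON, LPS and ProNa, and its log2 fold change of -0.29 with an adjusted p of 2.2e-04 per the authors' deposited table was the smallest of the 10 falls. Cox5a, its matrix-side neighbour, had 480, 247 and 269 FPKM with a log2 fold change of -0.69 in the authors' deposited table. Cox6c (ENSMUSG00000014313), a small membrane subunit, had 346, 136 and 164 FPKM, with a log2 fold change of -1.08 at an adjusted p of 1.6e-21 per the authors' deposited table. Cox8a, at 535 and 331 FPKM in CON and LPS, had a log2 fold change of -0.43 in the authors' deposited table. Cox6a1, which sits at the dimer interface, had 487 and 413 FPKM and did not pass, with an adjusted p of 0.857 per the authors' deposited table.

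The muscle isoforms of complex IV moved in opposite directions. Cox7a1 (ENSMUSG00000074218) had 15.7, 2.36 and 3.03 FPKM in CON, LPS and ProNa, and its log2 fold change of -2.46 with an adjusted p of 2.3e-05 per the authors' deposited table was the largest fall of all members. Its ubiquitous partner Cox7a2 had 127, 70.1 and 75.8 FPKM, with a log2 fold change of -0.59 in the authors' deposited table. Cox6a2 rose from 0.88 to 2.84 FPKM, with a log2 fold change of 1.96 at an adjusted p of 0.002 per the authors' deposited table, and had 1.66 FPKM in ProNa. Both isoforms were low, and none of the 4 muscle markers reached 1 FPKM.

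The ATP synthase had no member that rose: of 17 with an adjusted p 10 fell in the authors' deposited table, and their median log2 change was -0.55. Its F1 head, where ATP is formed, had 4 of 5 lower and a median of -0.81 in the authors' deposited table, and no test against the other parts was made. Atp5c1 (ENSMUSG00000025781), the gamma subunit of the central shaft, had 265, 105 and 119 FPKM in CON, LPS and ProNa. Its log2 fold change was -1.05 with an adjusted p of 3.3e-52 per the authors' deposited table. Both of its main protein-coding transcripts were lower, and the one of 1060 bases went from 31.6% of the gene's FPKM in CON to 20.8% in LPS. Atp5a1, the alpha subunit, had 424, 186 and 211 FPKM, with a log2 fold change of -0.92 at an adjusted p of 2.4e-60 per the authors' deposited table. Atp5b had 1225, 689 and 763 FPKM, with a log2 fold change of -0.55 at an adjusted p of 4.1e-25 per the authors' deposited table. Atp5d, the delta subunit of the shaft, had 198, 171 and 158 FPKM and did not pass, with an adjusted p of 0.73 per the authors' deposited table.

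In the peripheral stalk, which holds the F1 head still, 1 of 4 members with an adjusted p fell in the authors' deposited table: Atp5o, which encodes the oligomycin sensitivity protein at the top of the stalk, had 223, 111 and 111 FPKM and a log2 fold change of -0.74. All 4 were lower on the FPKM scale. Of the 3 subunit c genes Atp5g3 and Atp5g2 fell, with log2 fold changes of -0.77 and -0.98 in the authors' deposited table. Their CON and LPS means were 299 and 146 FPKM for Atp5g3, and 12.9 and 5.58 FPKM for Atp5g2. Atp5g1, with 149 and 129 FPKM, did not pass, with an adjusted p of 0.17 per the authors' deposited table, and on the FPKM scale all 3 were lower. Atp5j2, the f subunit, was the accessory member with the largest fall, from 121 to 53.4 FPKM, with a log2 fold change of -0.94 in the authors' deposited table. Atp5l and Atp5md, which support enzyme dimers, were at 513 and 399 FPKM in CON against 475 and 384 FPKM in LPS, and neither passed in the authors' deposited table.

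**Figure D2:**
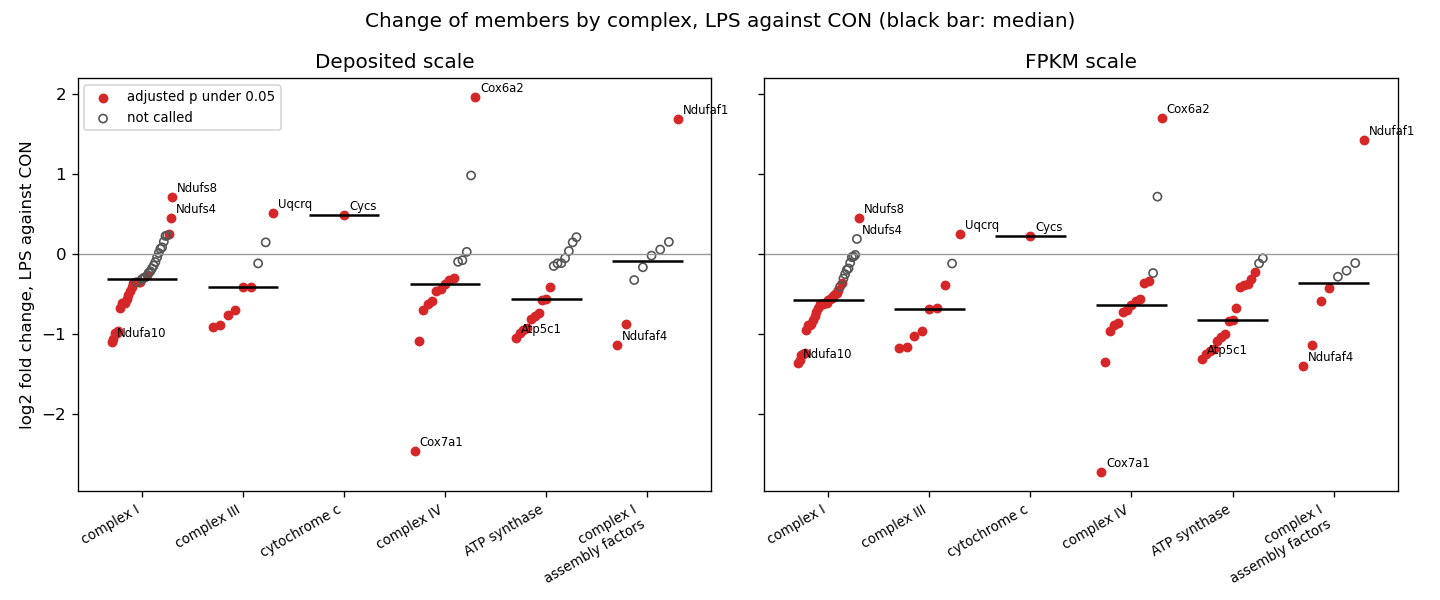
Log2 fold change in LPS against CON by complex, as deposited (left) and on the FPKM scale (right). Each member with an adjusted p is drawn except 2 further gene copies. Filled points had an adjusted p under 0.05, open points did not, and the black bars are medians. Over all members 46 were called lower and 7 higher on the deposited scale, and 65 and 5 on the FPKM scale. Of the 65, 1 is a further gene copy and is not drawn.

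Of the 8 assembly factors of complex I 2 fell and 1 rose in the authors' deposited table, and on the FPKM scale 4 were lower and 1 higher. Ndufaf3 and Ndufaf4, which bind each other in the assembly of the coenzyme Q module, both fell, with log2 fold changes of -0.87 and -1.13 in the authors' deposited table. Ndufaf3 went from 7.40 to 3.51 FPKM and Ndufaf4 from 11.003 to 4.62 FPKM. Ndufaf1 (ENSMUSG00000027305), a factor of the membrane arm, had 4.33, 11.5 and 12.6 FPKM in CON, LPS and ProNa, with a log2 fold change of 1.70 at an adjusted p of 8.1e-19 per the authors' deposited table. The most abundant factors, Ndufaf8 and Ndufaf2, had 26.9 and 17.1 FPKM in CON and 20.9 and 14.0 FPKM in LPS, and neither passed.

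Other genes of the pathway, listed for comparison with earlier results of these data known, are given by their counts. Beside them, 27.2% of all genes were lower and 28.1% higher in the authors' deposited table, and 35.8% and 21.4% on the FPKM scale. Complex II, which lies outside the name rule, had 6 of 8 genes lower and 1 higher in the authors' deposited table, and 6 and 0 on the FPKM scale. Its flavoprotein gene Sdha went from 116 to 41.5 FPKM, with a log2 fold change of -1.21 in the authors' deposited table. The mitochondrially encoded subunits had 10 of 13 lower and 0 higher in the authors' deposited table and 11 and 0 on the FPKM scale, with mt-Cytb of complex III from 4455 to 1539 FPKM. Atpif1, which inhibits the ATP synthase when it runs in reverse, had 523, 188 and 236 FPKM in CON, LPS and ProNa and a log2 fold change of -1.21 in the authors' deposited table. Of 6 assembly and inhibitor genes of the ATP synthase 3 fell and 1 rose on either scale. Carriers and other electron entry genes had 6 of 11 lower and 2 higher in the authors' deposited table, and 9 and 2 on the FPKM scale. Among these, the ADP/ATP carrier gene Slc25a4 went from 144 to 26.6 FPKM and the uncoupling protein gene Ucp2 from 746 to 120 FPKM.

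Genes that assemble complex IV changed in both directions, and which direction prevailed depended on the scale. Of 26 with an adjusted p 7 fell and 11 rose in the authors' deposited table, and their median log2 change was 0.17. By the FPKM scale 10 were lower and 7 higher. Of all genes 27.2% were lower and 28.1% higher in the authors' deposited table, and 35.8% and 21.4% on the FPKM scale. The complex IV assembly genes called lower were near those shares on both scales. The same shares apply to the other lists below. The difference of the complex IV assembly genes from the subunits was not tested. Cox17, the copper chaperone that feeds the complex, had 270, 556 and 623 FPKM in CON, LPS and ProNa, and a log2 fold change of 1.21 with an adjusted p of 1.9e-30 per the authors' deposited table. Sco2, which passes copper on to the catalytic site, had 13.7, 32.5 and 27.2 FPKM and an adjusted p of 1.3e-31 per the authors' deposited table. Cox20 and Cmc2 fell, with log2 fold changes of -1.01 and -0.90 in the authors' deposited table. Complex III assembly genes had 3 of 6 lower and 1 higher in the authors' deposited table and 4 and 1 on the FPKM scale, and Uqcc2 went from 135 to 48.8 FPKM. Complex I assembly genes outside the name rule had 3 of 11 lower and 2 higher in the authors' deposited table but 7 and 1 on the FPKM scale, with Tmem126a at 21.0 and 50.7 FPKM. Coenzyme Q genes had 6 of 13 lower and 3 higher in the authors' deposited table, and 7 and 2 on the FPKM scale. Among them the prenyltransferase gene Coq2 went from 15.6 to 5.05 FPKM, and Coq10b from 7.51 to 24.8 FPKM.

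**Figure D3:**
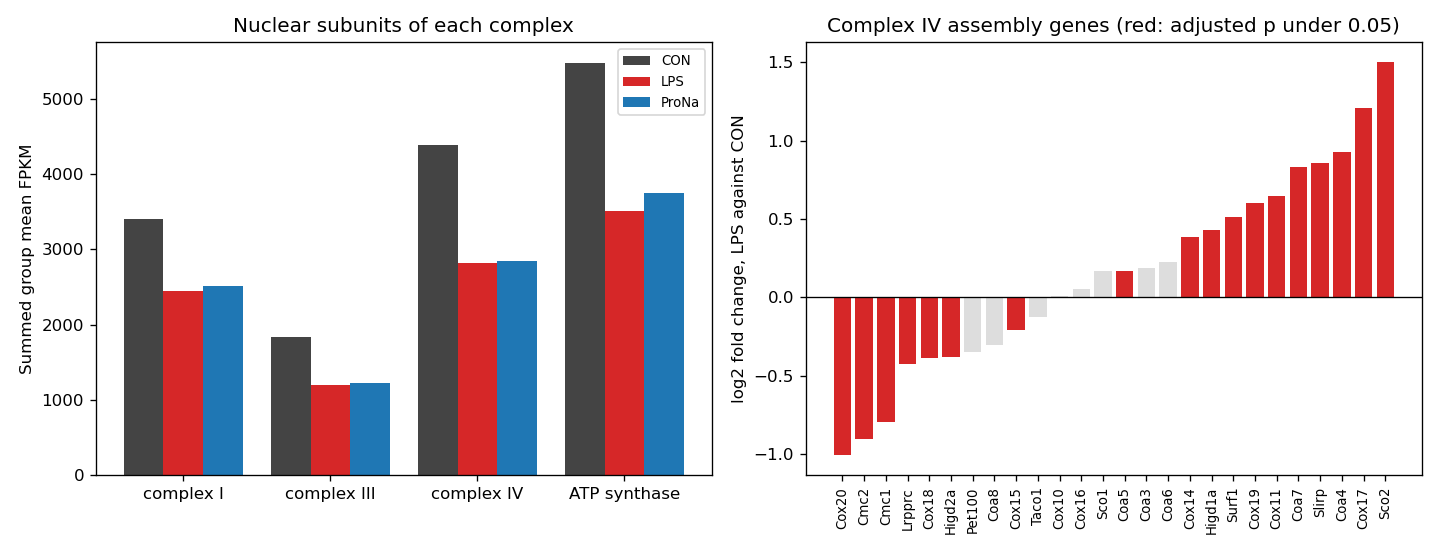
Left, summed group mean FPKM of the nuclear subunits of each complex in CON, LPS and ProNa, from 0; right, log2 fold change of complex IV assembly genes in LPS against CON, as deposited, with red bars for an adjusted p under 0.05. All 4 sums are lower in LPS than in CON. On the deposited scale shown 11 assembly genes rose and 7 fell, and on the FPKM scale 7 were higher and 10 lower. Of all genes 28.1% rose and 27.2% fell on the deposited scale, and 21.4% were higher and 35.8% lower on the FPKM scale.

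Of 13 regulators of mitochondrial gene expression with an adjusted p 4 fell and 3 rose in the authors' deposited table, whereas 8 were lower and 2 higher on the FPKM scale. The shares of all genes were 27.2% lower and 28.1% higher in the authors' deposited table, and 35.8% and 21.4% on the FPKM scale. Ppargc1a, the coactivator known as PGC-1alpha, was listed at 0 in all groups. Its relative Ppargc1b had 6.44, 3.11 and 1.52 FPKM in CON, LPS and ProNa, with a log2 fold change of -0.72 in LPS against CON and -0.91 in ProNa against LPS in the authors' deposited table. Nrf1, the factor named for its sites in respiratory gene promoters, had 12.1, 10.5 and 8.87 FPKM and passed in none of the comparisons of the authors' deposited table. Nrf1 was called lower on the FPKM scale, at -0.28 in LPS against CON and -0.42 in ProNa against CON, with adjusted p of 0.029 and 3.3e-04. Of the GABP beta subunits Gabpb1 went from 5.95 to 11.4 FPKM and Gabpb2 from 31.4 to 12.6 FPKM, and both passed in the authors' deposited table. Myc went from 0.903 to 26.6 FPKM, with a log2 fold change of 5.09 in the authors' deposited table.

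The second comparison, ProNa against LPS, asks how the same genes differed in cells that received ProNa before LPS. Levels were close: the members summed to 10544 FPKM in ProNa, 103.6% of LPS. The ATP synthase stood at 106.9% of LPS, complex I at 102.6%, complex III at 101.9% and complex IV at 101.0%, while cytochrome c stood at 122.6%. In the authors' deposited table, 86 members had an adjusted p, and of these 30 rose and 1 fell, or 36.05%, where 30.6% of all 12732 genes were called, 16.5% higher and 14.1% lower. The median log2 fold change was 0.17 in the authors' deposited table, against -0.0024 over all genes with an adjusted p. On the FPKM scale 8 members were higher and 1 lower, 9 in all, with 36.3% of all genes called, 10.7% higher and 25.7% lower, and the members' median was 0.04. At an adjusted p under 0.01 on the deposited scale 15 rose and 1 fell, 16 in all, where 22.6% of all genes passed, 12.8% higher and 9.75% lower. No member passed with a 2-fold change in the authors' deposited table, where 3.25% of all genes did. LPS against CON and ProNa against LPS share the LPS samples, so their values are not independent of each other.

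Those that rose were 10 of 37 in complex I, 4 of 9 in complex III, 6 of 13 in complex IV, 8 of 17 in the ATP synthase and 1 of 8 assembly factors, beside cytochrome c, in the authors' deposited table. These were 1, 1, 1, 3 and 1 in the same order on the FPKM scale, again beside cytochrome c. Ndufaf3 had the largest rise, from 3.51 to 4.99 FPKM, with a log2 fold change of 0.73 at an adjusted p of 0.011 per the authors' deposited table. Ndufb1 (ENSMUSG00000113902), a small membrane arm subunit of complex I, had 59.5, 42.1 and 63.3 FPKM in CON, LPS and ProNa. Its log2 fold change in ProNa against LPS was 0.71 with an adjusted p of 1.0e-06 per the authors' deposited table. GENCODE M21 lists its transcripts as a bidirectional promoter lncRNA, and no source used here states how strand was handled in counting, so its values may include reads of a neighbouring gene. Ndufaf3 and Ndufb1 were the members that rose by at least 1.5-fold.

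Uqcrc2 (ENSMUSG00000030884), a core protein of complex III, had 59.6, 37.6 and 49.6 FPKM in CON, LPS and ProNa. Its log2 fold change in ProNa against LPS was 0.54 with an adjusted p of 1.2e-09 per the authors' deposited table. Uqcrc1, the partner core protein, had 150, 116 and 119 FPKM and a log2 fold change of 0.17 in the authors' deposited table, and was not called on the FPKM scale. Cycs, whose promoter is shown, was higher again, from 51.8 FPKM in LPS to 63.5 FPKM in ProNa, with a log2 fold change of 0.44 at an adjusted p of 6.9e-10 per the authors' deposited table. Uqcrq had a log2 fold change of 0.23 with an adjusted p of 0.048 per the authors' deposited table, and 0.10 on the FPKM scale, where it was not called.

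In the ATP synthase 4 of the 5 F1 genes rose in the authors' deposited table. Atp5g3, of subunit c, went from 146 to 184 FPKM, with a log2 fold change of 0.45 at an adjusted p of 1.2e-06 per the authors' deposited table. Atp5a1 had 186 and 211 FPKM, with 0.32 and an adjusted p of 4.7e-07 per the authors' deposited table, and Atp5b 689 and 763 FPKM, with 0.27 and an adjusted p of 7.9e-06. These 3 were also called on the FPKM scale, at 0.32, 0.18 and 0.14. All 3 means remained below those of CON, at 299, 424 and 1225 FPKM. Atp5c1 and Atp5e, with log2 fold changes of 0.31 and 0.33 in the authors' deposited table, were not called on the FPKM scale.

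In complex IV the rises were small, led by Cox6c with a log2 fold change of 0.39 and Cox7b with 0.36 in the authors' deposited table. Cox6c, at 0.26 on the FPKM scale, was not called there. Cox7b went from 71.9 to 84.3 FPKM and was called on both scales. Cox7a2l (ENSMUSG00000024248), a factor that joins complexes III and IV into supercomplexes, was the 1 member that fell. Its means were 270, 210 and 145 FPKM in CON, LPS and ProNa, and its log2 fold change in ProNa against LPS was -0.40 with an adjusted p of 2.1e-05 per the authors' deposited table. In LPS against CON it did not pass, with a log2 fold change of -0.09 at an adjusted p of 0.382 per the authors' deposited table. A single protein-coding transcript held 97.9%, 96.7% and 97.2% of its FPKM in the 3 groups, and went from 203 FPKM in LPS to 141 FPKM in ProNa. In complex I, Ndufa3 did not pass as a gene, but a transcript annotated for nonsense-mediated decay went from 6.16% of its FPKM in LPS to 21.1% in ProNa, with no test at this level.

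**Figure D4:**
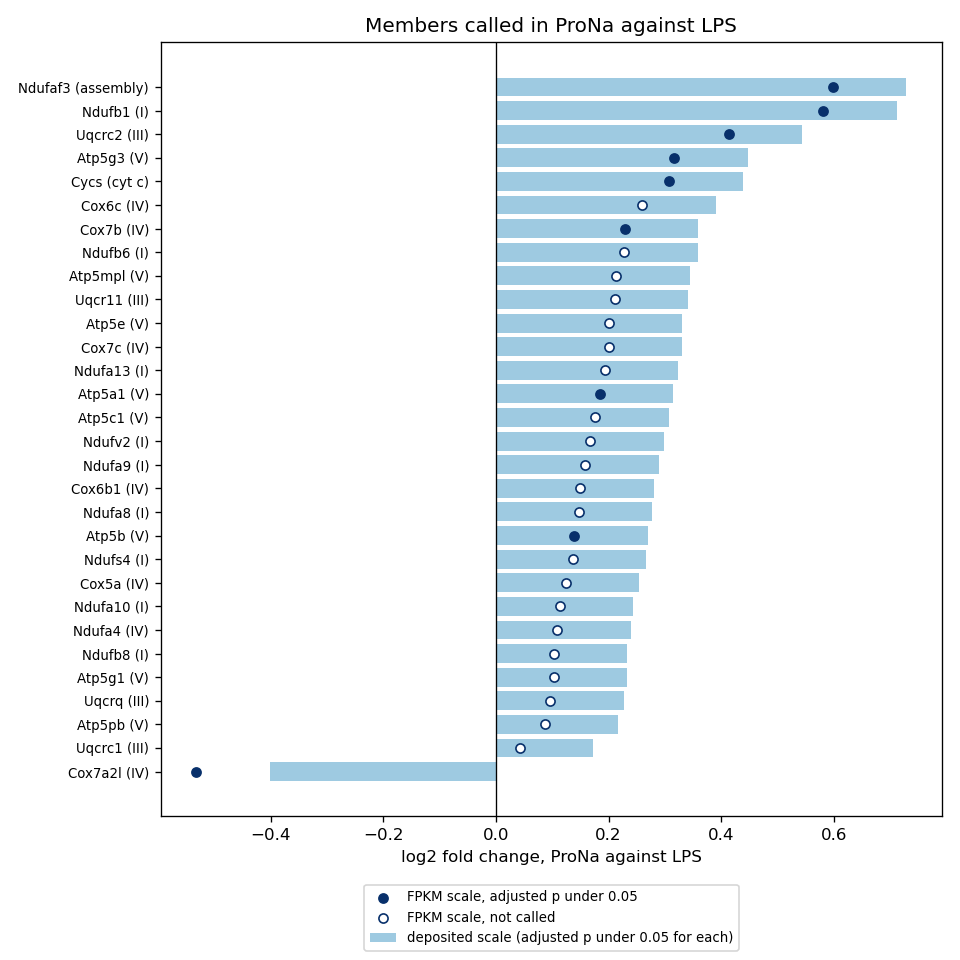
Log2 fold change in ProNa against LPS for members with an adjusted p under 0.05 (1 of the 31 is not drawn), with the complex in brackets (V is the ATP synthase); bars are the deposited values and points the FPKM scale, filled where still called. Only 9 points are filled, 8 higher and Cox7a2l lower.

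Among the other pathway genes, carriers had 6 of 11 higher and 0 lower in ProNa against LPS in the authors' deposited table, and 4 and 1 on the FPKM scale. Slc25a4 went from 26.6 to 34.5 FPKM and Ucp2 from 120 to 159 FPKM, and Atpif1 from 188 to 236 FPKM, each below its CON mean. Complex IV assembly genes had 5 of 26 higher and 2 lower in the authors' deposited table, among them Cox18, which inserts a mitochondrially encoded subunit, with a log2 fold change of 0.73. On the FPKM scale 3 of them were higher and 6 lower. Regulators had 4 of 13 lower and 1 higher in the authors' deposited table, and 5 and 1 on the FPKM scale. Complex II had 2 of 8 higher and 0 lower, and the mitochondrially encoded subunits 8 of 13 and 0, in the authors' deposited table. By the FPKM scale 0 of complex II and 3 of the mitochondrially encoded subunits were higher, beside 10.7% of all genes there and 16.5% in the authors' deposited table. For genes called lower, the shares of all genes were 25.7% on the FPKM scale and 14.1% in the authors' deposited table. The lower counts of the complex IV assembly genes and regulators above stand beside these shares.

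The third comparison, ProNa against CON, sets the cells given both agents against untreated ones. The members summed to 68.6% of CON. Their median log2 fold change was -0.13 in the authors' deposited table, against -0.03 over all genes with an adjusted p. On the FPKM scale the members' median was -0.53. In the authors' deposited table, 88 members had an adjusted p, and of these 36 fell and 18 rose, or 61.4%, where 54.4% of all 18540 genes were called, 26.6% lower and 27.7% higher. On the FPKM scale 70 were lower and 5 higher, with 39.1% of all genes lower and 18.3% higher. By at least 2-fold 2 members fell and 1 rose in the authors' deposited table, 3 in all, where 27.1% of all genes were called, 13.4% lower and 13.7% higher. The scales differ here by a median of 0.40 over all genes, which bears on single genes, and the share of all genes affected was not counted. Of the 18 members called higher in the authors' deposited table, 10 had a lower mean FPKM in ProNa than in CON. Cox6a1, for example, had 414 FPKM in ProNa and 487 FPKM in CON, yet a log2 fold change of 0.17 with an adjusted p of 0.0091 per the authors' deposited table. Complex I had 13 of 37 lower and 9 higher in the authors' deposited table, complex III 5 of 9 and 2, complex IV 8 of 15 and 1, and the ATP synthase 9 of 17 and 3. These were, on the FPKM scale, 27 lower and 2 higher, 7 and 1, 13 and 0, and 16 and 0.

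The 5 members higher on both scales were Cycs, Ndufs8, Uqcrq, Ndufs4 and Ndufaf1. Their log2 fold changes were 0.93, 0.84, 0.75, 0.73 and 1.90 in the authors' deposited table, and 0.53, 0.44, 0.35, 0.33 and 1.498 on the FPKM scale. They comprise an electron carrier, a core subunit, a ubiquinone-binding subunit, a subunit of the NADH module and an assembly factor. The largest falls were of Cox7a1, Ndufaf4 and Atp5g2, with log2 fold changes of -1.99, -1.03 and -0.97 in the authors' deposited table. Cox7a2l, at 145 FPKM in ProNa and 270 FPKM in CON, had a log2 fold change of -0.49 with an adjusted p of 1.8e-22 per the authors' deposited table. Ndufb1, at 63.3 FPKM against 59.5 FPKM, was higher by 0.48 in the authors' deposited table but not called on the FPKM scale, at 0.08.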

How the data were processed

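RNA from 9 samples in 3 groups of 3 was sequenced by the submitters, whose processing notes name HISAT2, StringTie, DESeq2 and the build GRCm39, and versions are not given in the sources used here. The authors' deposited matrix gives FPKM per transcript, as 1 mean per group and as values of 9 library columns. Those 9 columns carry names that no label gives, so they were not used. The authors' deposited DESeq2 table gives log2 fold changes and p-values, with adjusted p-values, for 3 comparisons, per the file headers. The fold in the text was derived from the log2 fold change of that deposited table. Those adjusted values are matched by the Benjamini-Hochberg method over 17795, 12732 and 18540 genes. Genes listed at exactly 1 were treated as having no adjusted p.

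FPKM were summed by gene identifier with Python 3.11.15 and pandas 2.3.3. For the FPKM scale, standard errors implied by the deposited p-values were kept, Wald p-values recomputed (scipy 1.17.1) and adjusted over all genes. The code of this step was tried on simulated data made with the same formula. That trial cannot show whether the deposited p-values follow the formula. The ratio of means used genes above 0 in both groups, and other ratios a pseudocount of 0.5. The members and lists were chosen with earlier results of these data known, so lists are described by counts and medians only. Named genes were, for each complex, the 3 highest, the 3 largest rises and falls in each comparison, those against the majority in LPS against CON, those changed at least 1.5-fold in ProNa against LPS, and isoforms with their partners. Of each pathway list, up to 2 called genes a direction were eligible. Other genes named, those that did not pass and further subunits among them, were chosen after their values were seen. Transcript biotypes were matched to GENCODE M21 and promoters to RefSeq by name or identifier. Promoters that did not match by symbol, 15 genes, were not searched. The alternatives tried were a threshold of 0.01, a 2-fold minimum, the FPKM scale, other pseudocounts and a minimum of 1 FPKM, subunits only, and other ways of summing FPKM. The values of 1 complex I subunit are not reported here, though it is included in counts and sums.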

Additional observations from a re-analysis of the deposited data

How the results depend on the processing

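Counts held within 1.5 times under a minimum of 1 FPKM and with subunits and cytochrome c only. With at least 2-fold required, 8 members were called in LPS against CON (6 lower, 2 higher), 0 in ProNa against LPS (0 lower, 0 higher) and 3 in ProNa against CON (2 lower, 1 higher). At an adjusted p under 0.01, 16 members were called in ProNa against LPS, 15 of them higher. On the FPKM scale 9 were called in ProNa against LPS, 8 of them higher, and in ProNa against CON 70 were lower and 5 higher. On that scale members with a positive log2 fold change, called or not, went from 22 to 7 in LPS against CON, from 78 to 54 in ProNa against LPS and from 31 to 8 in ProNa against CON. Within a comparison the subtraction lowers every gene by the same amount, and the same count over all genes was not made. Among the named members called on the deposited scale, the FPKM scale turned Ndufa7 negative in LPS against CON, to -0.0072. In ProNa against CON it turned Ndufa7 to -0.11, Atp5l to -0.13, Atp5pb to -0.29, Cox6a1 to -0.23, Ndufa13 to -0.056, Ndufaf7 to -0.0058 and Uqcrb to -0.17. Atp5l, Atp5pb and Cox6a1 were thus called higher on the deposited scale and lower on the FPKM scale. The FPKM scale took 20 further named values past the threshold without a change of sign. The complex IV sum in ProNa, 101.0% of LPS, became 99.94% as a share of all FPKM and 99.96% without mitochondrially encoded genes. The cause of these shifts was not tested beyond the subtraction itself. No paired analysis was possible because the library columns carry names that no label gives, and for the same reason limma on single libraries and leaving out each replicate were not run. With group means alone and unknown depth, differences of low members such as Cox6a2 have no interval.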
